A study of Mus musculus with 34 samples.

Results

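Ribosome biogenesis genes encode the nucleolar machinery that transcribes, cuts, modifies and folds ribosomal RNA, together with subunits of RNA polymerases I and III. The 42 genes described here were chosen by name, as nucleolar processing factors and polymerase I and III subunits, from a gene-level count table of bulk RNA-seq of mouse liver that holds 78298 genes. Each of the 42 symbols matched 1 line of the table, and all 42 genes were among the 14980 that passed the filter on low counts. RNA was sequenced from livers of young adult male C57/Bl6 mice that were left unoperated (0 h) or killed 6 h or 24 h after partial hepatectomy (PHx), the surgical removal of most of the liver. Wild-type (WT) mice carried floxed Sirt1 alleles without Cre, and their SIRT1intKO littermates carried the same alleles with Villin-Cre, which removes Sirt1, a NAD-dependent deacetylase, from the epithelium of the intestine and leaves the hepatic gene intact. There were 6, 6 and 4 WT livers and 6, 5 and 7 SIRT1intKO livers at 0, 6 and 24 h, each sequenced as 1 library. The labels call them biological replicates. The paper's legends give 5 livers per genotype at 6 h and 5 WT livers at 24 h, which the WT labels do not match.

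A cell that is about to grow must first make ribosomes. RNA polymerase I transcribes the long ribosomal RNA precursor in the nucleolus, RNA polymerase III makes the smallest ribosomal RNA and transfer RNAs, and small nucleolar ribonucleoproteins (snoRNPs), processing factors and assembly factors then turn the precursor into the small and large ribosomal subunits. Many genes of this programme are known targets of Myc, which binds the E-box sequence CACGTG as a dimer with Max, and remaining hepatocytes are known to enlarge and enter the cell cycle after PHx.

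Library totals ranged from 14892122 to 23480492 counts, with a median of 16807340, and the summed counts of single members in single libraries ranged upwards from 32 for Nle1. Levels are given as CPM, counts scaled to a common library size after TMM normalisation, which is not divided by transcript length, so levels are compared between livers and not between genes. Markers of hepatocytes summed to between 62500 and 110000 CPM in every library, and none of the 8 genes was at 0. The sum mixes genes that moved in opposite directions. Medians of Alb at 0, 6 and 24 h were 45200, 31800 and 18800 CPM in WT and 45500, 36100 and 33700 in SIRT1intKO. Those of Fgb were 5790, 21000 and 18000 in WT and 5980, 20700 and 14100 in SIRT1intKO. Hepatic Sirt1 lay between 6.92 and 23.1 CPM over all libraries and its largest fitted genotype difference, at 24 h, was -0.65 on the log2 scale with an adjusted p of 0.0726 by edgeR's quasi-likelihood test. Since the deletion is intestinal, this value does not test the genotype labels. The 0 h libraries carry library numbers from a series of their own in both genotypes, so any difference in handling between the series coincides with PHx and cannot be told apart from it. In bulk tissue a change of the share of a cell type and a change within cells cannot be told apart either.

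The promoters of the members were examined first. RefSeq windows of 300 bases, from 250 before to 50 after the annotated start (GRCm38.p6), were on file for 36 of the 42 members. Bop1, Fbl, Npm1, Polr3d, Rrp12 and Rrs1 had none. The E-box CACGTG, which reads the same on both strands, was found in the windows of 10 of the 36 members (27.8%), against 7.15% of all 32851 windows in the table and 11.5% of the 10597 tested genes that had a window. In 8 of these members the match lay after the start, between positions 3 and 41 counted from the first transcribed base, and in Imp4 and Nop2 it lay 121 and 60 bases before it. The following stretches of 30 bases, shown because the E-box is the motif that was commoner among members than among tested genes by the widest margin in percentage points, hold these 10 matches, each printed 5′ to 3′ along the gene with the E-box in capitals.
Mybbp1a chr11:72441347-72441376 (+ strand): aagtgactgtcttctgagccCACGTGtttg
Wdr43 chr17:71616220-71616249 (+ strand): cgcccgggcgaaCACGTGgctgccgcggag
Imp4 chr1:34439696-34439725 (+ strand): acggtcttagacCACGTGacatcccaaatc
Ltv1 chr10:13193092-13193121 (- strand): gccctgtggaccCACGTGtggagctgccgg
Tsr1 chr11:74898092-74898121 (+ strand): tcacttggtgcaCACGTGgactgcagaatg
Pno1 chr11:17211540-17211569 (- strand): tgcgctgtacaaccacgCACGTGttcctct
Nop2 chr6:125131811-125131840 (+ strand): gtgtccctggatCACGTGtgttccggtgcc
Pes1 chr11:3963965-3963994 (+ strand): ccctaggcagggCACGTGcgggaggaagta
Grwd1 chr7:45830740-45830769 (- strand): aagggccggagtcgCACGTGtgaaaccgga
Nle1 chr11:82908355-82908384 (- strand): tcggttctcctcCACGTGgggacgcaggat

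The ETS letters CCGGAAG, searched on both strands, were present in the windows of 11 members (30.6%) against 19.1% of tested genes and 8.86% of all windows. The letters CTCGCGA, also on both strands, were present in 5 members (13.9%) against 4.28% and 1.93%, and the NRF1 core GCATGCG was present in Nob1 and Pno1 (5.56%) against 6.78% and 3.58%. In Tsr1 the CTCGCGA matches on both strands overlapped by all but 1 base, as did the GCATGCG matches in Nob1 and Pno1. A few contrasting members are shown by the 250 bases before their start. Nop2 holds an E-box and an ETS match, Heatr1 an ETS match close to the start and Nop58 the letters CTCGCGA, all of them in capitals, and all of these genes rose at 6 h. Nop16, the member that fell at 6 h in WT livers, holds none of the motifs in this stretch. The pairing is not general, since Polr1c, with ETS and CTCGCGA matches, did not pass against 0 h in any comparison, and Rrp1b, with no match to any of the motifs, rose most. A match is a description of the letters and says nothing about binding.
Nop2 chr6:125131633-125131882 (+ strand): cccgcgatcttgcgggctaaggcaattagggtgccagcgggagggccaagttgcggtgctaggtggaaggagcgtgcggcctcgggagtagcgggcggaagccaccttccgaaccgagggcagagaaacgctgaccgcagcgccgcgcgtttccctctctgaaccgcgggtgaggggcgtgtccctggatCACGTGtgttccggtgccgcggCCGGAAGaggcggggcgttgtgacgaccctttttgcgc
Heatr1 chr13:12395125-12395374 (+ strand): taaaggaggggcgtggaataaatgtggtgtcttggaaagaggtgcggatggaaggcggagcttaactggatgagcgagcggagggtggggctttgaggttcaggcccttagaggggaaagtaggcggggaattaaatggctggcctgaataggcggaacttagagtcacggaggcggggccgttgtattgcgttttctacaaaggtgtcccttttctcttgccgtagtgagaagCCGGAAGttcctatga
Nop58 chr1:59684756-59685005 (+ strand): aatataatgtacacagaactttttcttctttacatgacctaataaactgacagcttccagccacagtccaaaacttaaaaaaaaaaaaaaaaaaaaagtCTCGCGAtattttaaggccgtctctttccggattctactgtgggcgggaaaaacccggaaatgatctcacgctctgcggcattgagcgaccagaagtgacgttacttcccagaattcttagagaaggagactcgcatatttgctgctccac
Nop16 chr13:54590075-54590324 (- strand): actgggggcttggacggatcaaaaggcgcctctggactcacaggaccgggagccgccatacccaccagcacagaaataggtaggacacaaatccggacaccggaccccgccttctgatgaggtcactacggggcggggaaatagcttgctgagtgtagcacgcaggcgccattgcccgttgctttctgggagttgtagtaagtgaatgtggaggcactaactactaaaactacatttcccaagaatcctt

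To determine how the set behaved after PHx, each member was compared between time points within each genotype. At 6 h, 29 of the 42 members rose and 1 fell in WT livers, and 33 rose and 0 fell in SIRT1intKO livers (edgeR quasi-likelihood test, adjusted p under 0.05 over all genes tested). Over all 14980 genes, 18.9% rose and 18.5% fell in WT and 20.9% rose and 17.6% fell in SIRT1intKO at the same threshold. Members were chosen with earlier results of these data known, so this excess over all genes is a description and not independent evidence. On the log2 scale the middle member changed by 0.58 in WT livers and by 0.71 in SIRT1intKO livers, where the medians of all genes were 0.02 and 0.01. At 24 h, 20 members rose and 0 fell in WT, where 19.5% of all genes rose and 14.6% fell, and 23 rose and 0 fell in SIRT1intKO, where 26.2% rose and 24% fell, with member medians of 0.39 and 0.35. Fitted 24 h changes were above 0 for 40 members in WT and 39 in SIRT1intKO, and the fitted 24 h level lay between those of 0 and 6 h for 30 members in WT and 35 in SIRT1intKO.

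The changes were mostly below a doubling. With the study's further requirement of an absolute log2 fold change over 1, 9 members rose in WT and 11 in SIRT1intKO at 6 h (7.17% and 7.86% of all genes), and 3 and 1 at 24 h (8.32% and 11.9% of all genes). Read by library, 17 members had every WT liver of 6 h above every WT liver of 0 h, and 21 members in SIRT1intKO, where 11.5% and 13.2% of all genes separated upwards in this way. At 24 h the count was 6 members in WT (9.38% of all genes) and 14 in SIRT1intKO (11% of all genes). In WT at 24 h the count of separated members was thus 14 below the count of members that rose.

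**Figure D1:**
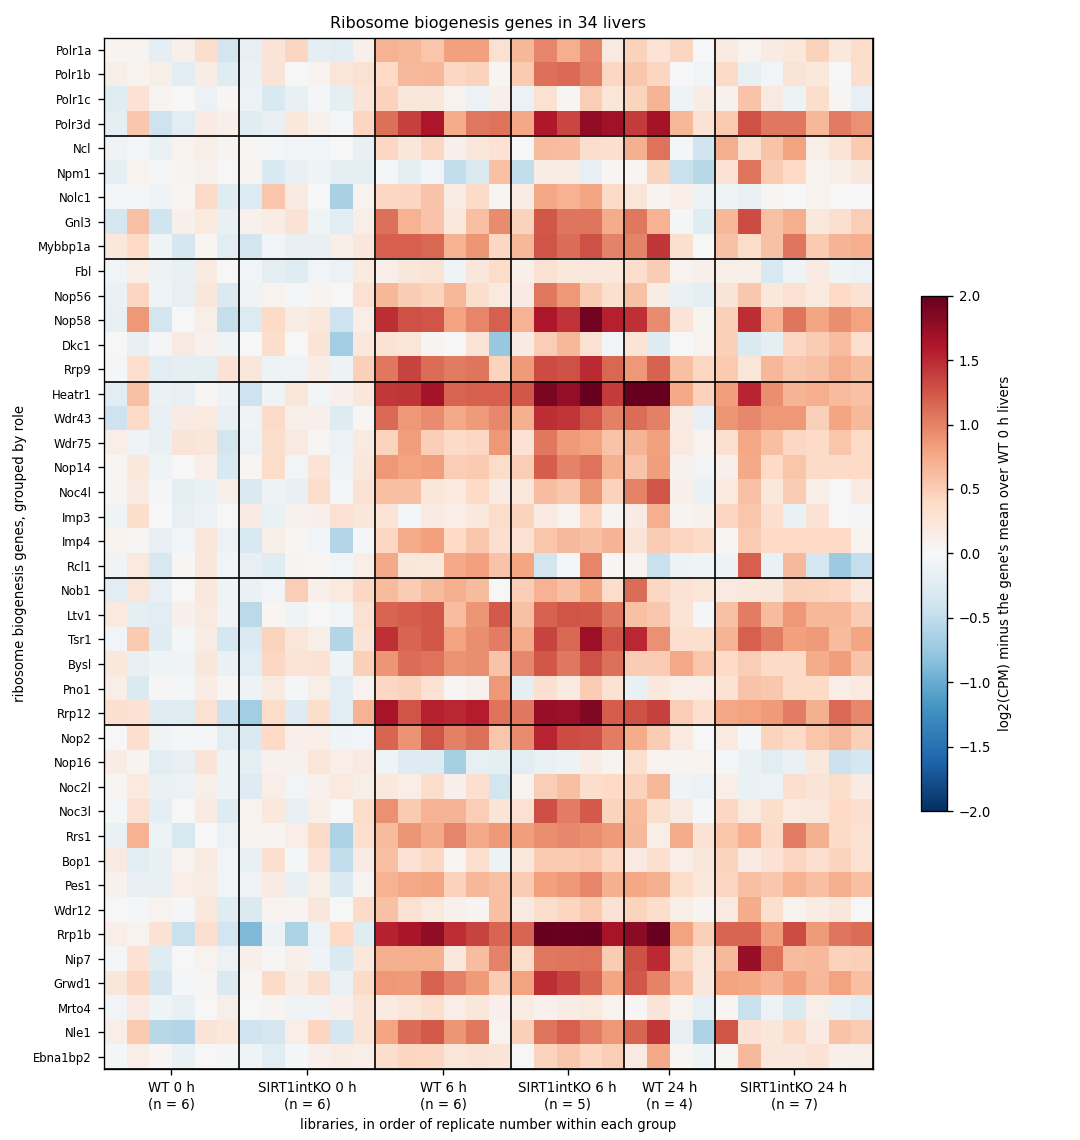
Each row is 1 of the 42 genes, in the order of their roles, and each column 1 of the 34 livers. Colour gives log2 CPM minus the gene's mean over the 6 WT livers of 0 h and saturates at 2 in both directions. The 6 h columns are mostly red in both genotypes, and at 24 h the first WT columns are redder than the others of their group.

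The mean of log2 CPM over the 42 genes summarises each liver. It ranged from 3.93 to 4.27 in the WT livers and from 3.91 to 4.27 in the SIRT1intKO livers at 0 h. At 6 h it ranged from 4.54 to 4.79 in WT, median 4.70, and the SIRT1intKO livers of replicates 1 to 5 had 4.502, 4.96, 4.90, 5.00 and 4.70. The 0 h and 6 h livers thus did not overlap in either genotype. The 4 WT livers of 24 h lay apart from each other, replicates 1 and 2 both at 4.78 and replicates 3 and 4 at 4.29 and 4.13, while the 7 SIRT1intKO livers of 24 h stayed between 4.42 and 4.64. The SD between livers at 24 h was 0.336 in WT and 0.0758 in SIRT1intKO.

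This spread bears on every WT value at 24 h. WT replicates 1 and 2 exceeded all 6 WT livers of 0 h for 34 and 35 of the 42 members, and replicates 3 and 4 for 14 and 7. Summed markers of cholangiocytes, the bile duct cells, were 83.3 and 116 CPM in replicates 1 and 2 against 15.4 and 17.3 in replicates 3 and 4, with none of the 4 genes at 0 over the group, and ranged from 6.53 to 13.9 at 0 h. Sox9 made up 86.1% of the summed level in this group. Summed neutrophil markers, 28.7% of them from S100a8 and 37.7% from S100a9 in this group, were 111 and 91 CPM against 13.8 and 7.47. Their part in the spread was not tested. Without replicate 1 or without replicate 2 the count of members that rose in WT at 24 h was 12 instead of 20, and without replicate 4 it was 27. Polr3d, Rrp9, Heatr1, Bysl, Rrp12, Pes1, Rrp1b, Nip7 and Grwd1 were called in every one of the 10 fits that left out a WT liver of 0 h or 24 h.

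**Figure D2:**
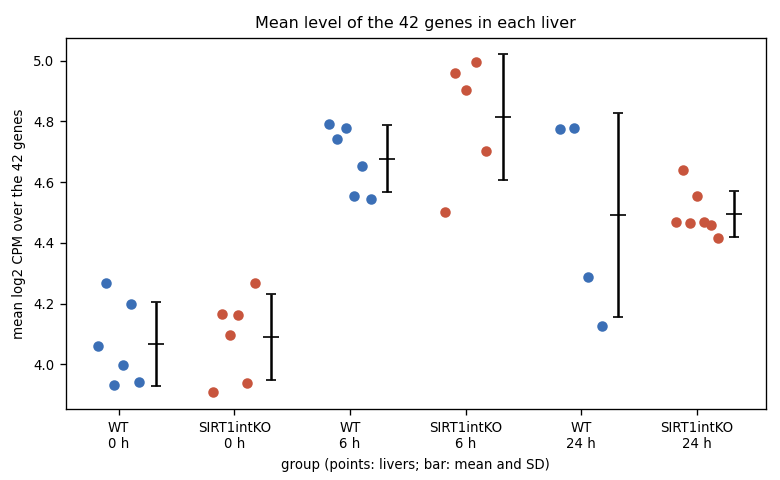
The vertical axis is the mean log2 CPM of the 42 genes and does not start at 0. Points are livers in order of replicate number, and the bars beside them give the mean and SD of each group. The WT group of 24 h has 2 livers at 4.78 and the others at 4.29 and 4.13, and the 7 SIRT1intKO livers of 24 h lie from 4.42 to 4.64.

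Among the polymerase subunits, 3 of 4 rose at 6 h in each genotype and the shared subunit did not pass the test. Polr3d, a subunit of RNA polymerase III, rose by a log2 fold change of 1.15 ± 0.201 (SE) in WT and 1.41 ± 0.209 in SIRT1intKO at 6 h and was still higher at 24 h, by 1.07 and 0.88, with adjusted p of 0.000431 and 0.000423. Polr1a, the largest catalytic subunit of RNA polymerase I, had 10.3, 13.6 and 16.8 CPM as lowest, median and highest of the 6 WT livers of 0 h, and 16.2, 21 and 23.3 at 6 h. The WT livers of 24 h had 18.1, 16, 17.8 and 13.2 CPM. At 6 h the WT groups overlapped in 1 liver each, and at 24 h the WT livers lay within or just above the 0 h range.

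In SIRT1intKO livers Polr1a went from 11.3, 13 and 17.7 CPM at 0 h to 20.8, 26, 21.8, 25.7 and 14.8 at 6 h and 13.8, 15.2 and 18.2 at 24 h. It rose by 0.63 ± 0.135 in WT and 0.67 ± 0.140 in SIRT1intKO at 6 h, and fell from 6 to 24 h in SIRT1intKO by 0.48 (adjusted p = 0.0079). Polr1b, the other large catalytic subunit, rose by 0.45 and 0.73 at 6 h and differed from 0 h by 0.24 and 0.02 at 24 h, neither past the test. From 6 to 24 h Polr1b fell by 0.71 in SIRT1intKO, while the WT values of Polr1a and Polr1b, -0.35 and -0.21, did not pass. Polr1c, which both polymerases use, had medians of 14.9, 16.5 and 18.2 CPM at 0, 6 and 24 h in WT and 13.4, 17.5 and 15.7 in SIRT1intKO. Its 4 changes from 0 h, from 0.17 to 0.32, did not pass the test.

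Nucleolar scaffold and regulatory proteins were mixed, with 2 of 5 higher at 6 h in WT and 4 of 5 in SIRT1intKO. Ncl (nucleolin), which organises the nucleolus and binds the nascent ribosomal RNA, had 127, 141 and 151 CPM in WT livers of 0 h, 150, 167 and 186 at 6 h, and 229, 296, 136 and 106 at 24 h. The last 4 values span both sides of the 0 h range. In SIRT1intKO Ncl had 126, 135 and 142 CPM at 0 h, 139, 216, 214, 177 and 176 at 6 h, and 154, 201 and 243 at 24 h, where every liver lay above every liver of 0 h. It rose at 24 h by 0.46 ± 0.175 in WT and 0.54 ± 0.153 in SIRT1intKO (adjusted p = 0.0423 and 0.00396), the WT call being kept in 3 of the 10 fits that left out a liver and its value falling to 0.17 without replicate 2 of 24 h. Its 6 h call in SIRT1intKO, 0.45, was kept in 3 of 11 such fits.

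Npm1 (nucleophosmin), a histone and ribosomal protein chaperone, was called higher in SIRT1intKO livers at 24 h and not at 6 h, as was Pno1. It had 86.8, 102 and 105 CPM in WT livers of 0 h and 71.0, 92.0 and 150 at 6 h, and 102, 136, 73.1 and 67.8 at 24 h, with log2 fold changes of -0.04 and -0.07 that did not pass the test. In SIRT1intKO it had 80.9, 89.3 and 103 CPM at 0 h, 70.5, 110, 111, 89.0 and 102 at 6 h, and 105, 121 and 209 at 24 h. All 7 SIRT1intKO livers of 24 h thus lay above all 6 of 0 h, and Npm1 was the only member that rose from 6 to 24 h in SIRT1intKO, by 0.47 ± 0.176 (adjusted p = 0.0462). That call was kept in 6 of 12 fits that left out a liver and not without SIRT1intKO replicates 2, 3 or 4 of 24 h or replicates 1, 4 or 5 of 6 h, where it lay between 0.34 and 0.50. Mybbp1a, a Myb-binding nucleolar protein, and Gnl3 (nucleostemin), a GTP-binding protein, rose at 6 h by 0.93 and 0.67 in WT and by 1.12 and 0.87 in SIRT1intKO. Nolc1, a chaperone of snoRNPs, rose in SIRT1intKO at 6 h by 0.55 (adjusted p = 0.00302), where the WT value was 0.33 (adjusted p = 0.0599), and was at 0.07 and -0.04 at 24 h.

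Of the 5 snoRNP core proteins, 3 rose at 6 h in WT and 4 in SIRT1intKO. Nop58, a core protein of box C/D snoRNPs, which guide methylation of ribosomal RNA, had 14.2, 19 and 36.3 CPM in WT livers of 0 h, 34.8, 46.7 and 55.3 at 6 h, and 54.9, 38.1, 23.7 and 20.7 at 24 h. SIRT1intKO livers had 14.9, 21.9 and 26.1 CPM, then 32.3, 60.9, 54.0, 75.7 and 58.5, then 27.6, 34.7 and 55.3. The SIRT1intKO groups of 6 and 24 h did not overlap with 0 h, and in WT a single 0 h liver reached into the 6 h range. Nop58 rose by 1.11 ± 0.228 in WT and 1.44 ± 0.238 in SIRT1intKO at 6 h and by 0.71 and 0.86 at 24 h, where the WT call was kept in 5 of 10 fits that left out a liver and the value was 0.41 without replicate 1 of 24 h.

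Nop56, its partner in the same particle, rose less, by 0.46 and 0.56 at 6 h. Its medians were 25, 37.7 and 27.2 CPM in WT and 27.5, 38.2 and 32.9 in SIRT1intKO at 0, 6 and 24 h, and the 24 h differences from 0 h, 0.11 and 0.26, did not pass the test. The single livers behind them ranged from 22.2 to 36.4 CPM at 0 h and from 30.9 to 42.7 at 6 h in WT, and were 40.5, 29.9, 24.6 and 23.7 at 24 h. In SIRT1intKO they ranged from 25.7 to 33.2 CPM at 0 h, were 30.1, 56.3, 49.5, 38.2 and 33.5 at 6 h, and ranged from 30.9 to 39.3 at 24 h. The groups overlapped in both genotypes at every pair of time points with 0 h. Rrp9, a protein of the U3 snoRNP, rose by 1.02 and 1.12 at 6 h. Fbl (fibrillarin), the methyltransferase of the box C/D particle, rose by 0.28 in SIRT1intKO at 6 h and by 0.26 in WT at 24 h, and its values in the other comparisons with 0 h were 0.19 and 0.05. Its calls were kept in 4 of 11 and 4 of 10 fits that left out a liver. Dkc1, the pseudouridine synthase of box H/ACA particles, lay between 0.03 and 0.28 in the 4 comparisons and did not pass the test in any.

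Of the 8 proteins of the small-subunit processome, the particle that forms on the nascent precursor, 5 rose at 6 h in WT and 6 in SIRT1intKO. Heatr1, which belongs to the early subcomplex linked to transcription, rose most in this group, by 1.33 ± 0.213 and 1.66 ± 0.222 at 6 h. Heatr1 had 53.3, 52.2, 22.2 and 18.2 CPM in the WT livers of 24 h, against 11.3, 12.1 and 19.8 at 0 h. The 24 h value of 1.44 in WT thus combined livers far above the 0 h range with livers at its upper end. Wdr43 and Wdr75, of the same subcomplex, rose by 0.90 and 0.57 in WT and 1.14 and 0.64 in SIRT1intKO, and were higher at 24 h in both genotypes. Imp4, a U3-bound protein, likewise rose at both time points in both genotypes, by 0.55 and 0.68 at 6 h and 0.39 and 0.44 at 24 h. Nop14, a structural protein of the particle, rose by 0.65 and 0.78 at 6 h. Its partner Noc4l rose by 0.53 in SIRT1intKO at 6 h and 0.66 in WT at 24 h. The WT livers of 24 h were divided, with 21.15, 25.25, 11.42 and 9.657 CPM of Noc4l against 9.31 to 12 at 0 h.

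Imp3, which acts beside Imp4, did not pass the test in any comparison. Imp3 had 24.7, 26.7 and 35.1 CPM at 0 h and 27.1, 31.5 and 35.6 at 6 h in WT, and 30.9, 45.7, 28.8 and 29.1 at 24 h. In SIRT1intKO it had 25, 30.3 and 34 CPM at 0 h, 37.6, 31.2, 28.8, 37 and 28.7 at 6 h, and 25.2, 33.7 and 40.6 at 24 h. The groups of Imp3 overlapped throughout. Rcl1, named for its likeness to cyclases of RNA ends, had the most counts of the group and wide spreads. It had 88.0, 108 and 128 CPM in WT livers of 0 h, 127, 174 and 193 at 6 h and 113, 80.5, 102 and 103 at 24 h. In SIRT1intKO Rcl1 had 92.2, 109 and 120 CPM, then 189, 85.1, 107, 216 and 112, then 66.2, 99.8 and 251. Its WT value of 0.57 at 6 h had an adjusted p of 0.0593, and the SIRT1intKO livers of 6 and 24 h lay both above and below the 0 h range.

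All 6 factors of late small-subunit maturation rose at 6 h in WT and 5 of 6 in SIRT1intKO, the highest share among the role groups, with medians of 0.99 and 1.02. Tsr1, a GTPase-like factor of the cytoplasmic precursor, had 12.8, 15.8 and 23.5 CPM in WT livers of 0 h, 28.4, 34.9 and 44.8 at 6 h, and 46.1, 30.6, 20.6 and 20.6 at 24 h. SIRT1intKO livers had 10.8, 18.6 and 22.2 CPM, then 27.2, 41.5, 36, 53.3 and 38.9, then 25.2, 28.6 and 37.2. At 6 h no liver overlapped with 0 h in either genotype. Tsr1 rose by 1.09 ± 0.191 and 1.20 ± 0.198 at 6 h and by 0.83 ± 0.209 and 0.79 ± 0.184 at 24 h, the WT value being 0.54 with an adjusted p of 0.0545 without replicate 1 of 24 h. Rrp12, an export factor of the precursors, rose by 1.41 and 1.44, Ltv1 by 1.07 and 1.12, and Bysl by 0.92 in both genotypes at 6 h.

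Pno1 and Nob1, which act together at the last cleavage of the small-subunit RNA, moved less. Pno1 had 21.4, 26.6 and 28.9 CPM in WT livers of 0 h, 26.6, 33.4 and 47.9 at 6 h, and 23.7, 30.3, 28.8 and 28.6 at 24 h. In SIRT1intKO it had 22.4, 26.6 and 29.7 CPM, then 23.1, 32.8, 29.7, 37.2 and 32.5, then 28.8, 34.3 and 38.7. Pno1 rose in WT at 6 h by 0.38 ± 0.121 (adjusted p = 0.0142) and in SIRT1intKO at 24 h by 0.36 ± 0.117 (adjusted p = 0.0123), and its other values against 0 h were 0.24 and 0.08. Without WT replicate 6 of 6 h the WT value was 0.27 and no longer passed. Nob1, the endonuclease, rose by 0.53 and 0.41 at 6 h and by 0.55 in WT at 24 h, where the SIRT1intKO value was 0.13. The 6 h call in SIRT1intKO was kept in 5 of 11 fits that left out a liver.

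**Figure D3:**
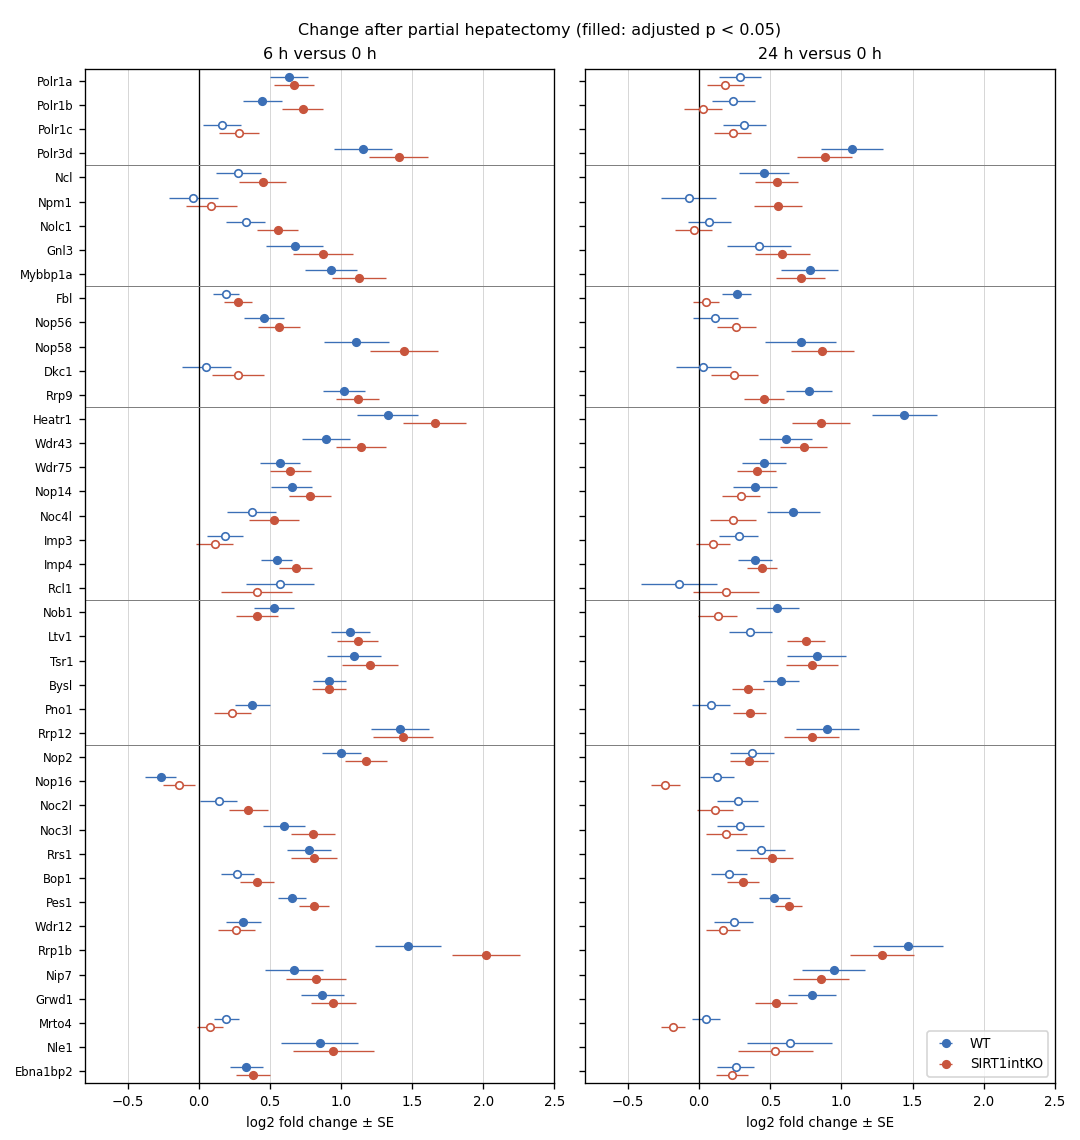
Points are log2 fold changes against 0 h and bars their standard errors, for each of the 42 genes in WT and SIRT1intKO at 6 h and at 24 h, with lines between role groups and filled points for an adjusted p under 0.05. At 6 h 29 WT points and 33 SIRT1intKO points lie filled to the right of 0, and Rrp1b reaches 1.47 and 2.02.

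Of the 14 factors of large-subunit assembly, 10 rose and 1 fell at 6 h in WT and 11 rose in SIRT1intKO. Rrp1b, a nucleolar processing factor, had the highest log2 fold change of all 42 members in each of the 4 comparisons with 0 h. It had 2.64, 3.86 and 4.55 CPM in WT livers of 0 h, 8.02, 10.2 and 12.3 at 6 h, and 12.5, 16.9, 6.28 and 5.03 at 24 h. In SIRT1intKO Rrp1b had 1.95, 3.18 and 4.72 CPM, then 8.02, 14.4, 14.1, 15.4 and 11.3, then 6.43, 7.79 and 8.89. No group overlapped with 0 h in either genotype. The rise was 2.77-fold in WT and 4.05-fold in SIRT1intKO at 6 h, and 2.76-fold and 2.44-fold at 24 h, with SE on the log2 scale from 0.225 to 0.247.

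Nop2, a methyltransferase of the large-subunit RNA, was high at 6 h and lower again at 24 h. It had 12, 13.8 and 17.7 CPM in WT livers of 0 h, 20.6, 29 and 33.5 at 6 h, and 23.4, 19.9, 16 and 13.9 at 24 h. SIRT1intKO livers had 11.5, 14.3 and 18.5 CPM, then 27, 40.1, 34.6, 34.4 and 28.4, then 13.6, 19.2 and 22.1. The 6 h livers lay above all 0 h livers in both genotypes and, in SIRT1intKO, above all 24 h livers. Nop2 rose 2.00-fold and 2.26-fold at 6 h and then fell by 0.63 ± 0.156 in WT and 0.83 ± 0.138 in SIRT1intKO (adjusted p = 0.00592 and 6.69e-05).

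The PeBoW complex, in which Pes1, Bop1 and Wdr12 act together on the large-subunit RNA, did not move as 1 unit in size. Pes1 had 19.5, 22.2 and 24.1 CPM in WT livers of 0 h, 30.1, 35 and 37.6 at 6 h and 37.5, 35.8, 28 and 25.1 at 24 h. In SIRT1intKO it had 17.8, 21.7 and 24.3 CPM, then 30.9, 38.5, 40.0, 42.9 and 35.8, then 29.5, 33.2 and 36.3. Every operated liver thus exceeded every unoperated liver of its genotype for Pes1. It rose by 0.66 ± 0.0992 and 0.81 ± 0.103 at 6 h and by 0.53 ± 0.109 and 0.63 ± 0.0961 at 24 h. Bop1 rose by 0.41 in SIRT1intKO at 6 h and 0.31 at 24 h, with WT values of 0.27 and 0.21 that did not pass the test, and Wdr12 rose by 0.31 in WT at 6 h alone among its 4 comparisons with 0 h, a call kept in 3 of 12 fits that left out a liver.

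Noc2l and Nop16 were near their 0 h levels. Noc2l, which pairs with other nucleolar complex proteins on the precursor, had 31.5, 33.5 and 39.5 CPM in WT livers of 0 h, 26.5, 38.8 and 43.7 at 6 h, and 47.5, 54.3, 32.9 and 31.8 at 24 h. SIRT1intKO livers had 28.8, 37 and 39.3 CPM, then 36.2, 48.3, 52.2, 44.1 and 45.5, then 31.6, 38.7 and 44.1. It rose in SIRT1intKO at 6 h by 0.35 ± 0.135 (adjusted p = 0.0402), a call kept in 2 of 11 fits that left out a liver, and at 24 h the WT livers divided around the top of the 0 h range.

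Nop16, a nucleolar protein of the large-subunit precursor, was the only member that fell against 0 h. It had 26.2, 29.8 and 36 CPM in WT livers of 0 h, 19.1, 25.8 and 28.6 at 6 h, and 37.8, 31.5, 31.3 and 31.9 at 24 h. Nop16 fell in WT by 0.27 ± 0.108 at 6 h (adjusted p = 0.0487) and rose from 6 to 24 h by 0.39 ± 0.119 (adjusted p = 0.0228), the WT groups of 6 and 24 h not overlapping. The fall at 6 h was called in 6 of 12 fits that left out a liver, with values from -0.32 to -0.21, and the later rise in 9 of 10, all but that without replicate 1 of 24 h. In SIRT1intKO it had 26.4, 32.7 and 35.7 CPM, then 25.8, 27.4, 28.2, 33.6 and 31.3, then 22.3, 27.5 and 34.8, with values of -0.14 and -0.24 against 0 h (adjusted p = 0.34 and 0.0535). The other large-subunit factors that rose at 6 h in both genotypes were Noc3l, Rrs1, Nip7, Grwd1, Nle1 and Ebna1bp2, by 0.33 to 0.87 in WT and 0.38 to 0.95 in SIRT1intKO. Mrto4, a factor of the ribosomal stalk, did not pass the test against 0 h.

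**Figure D4:**
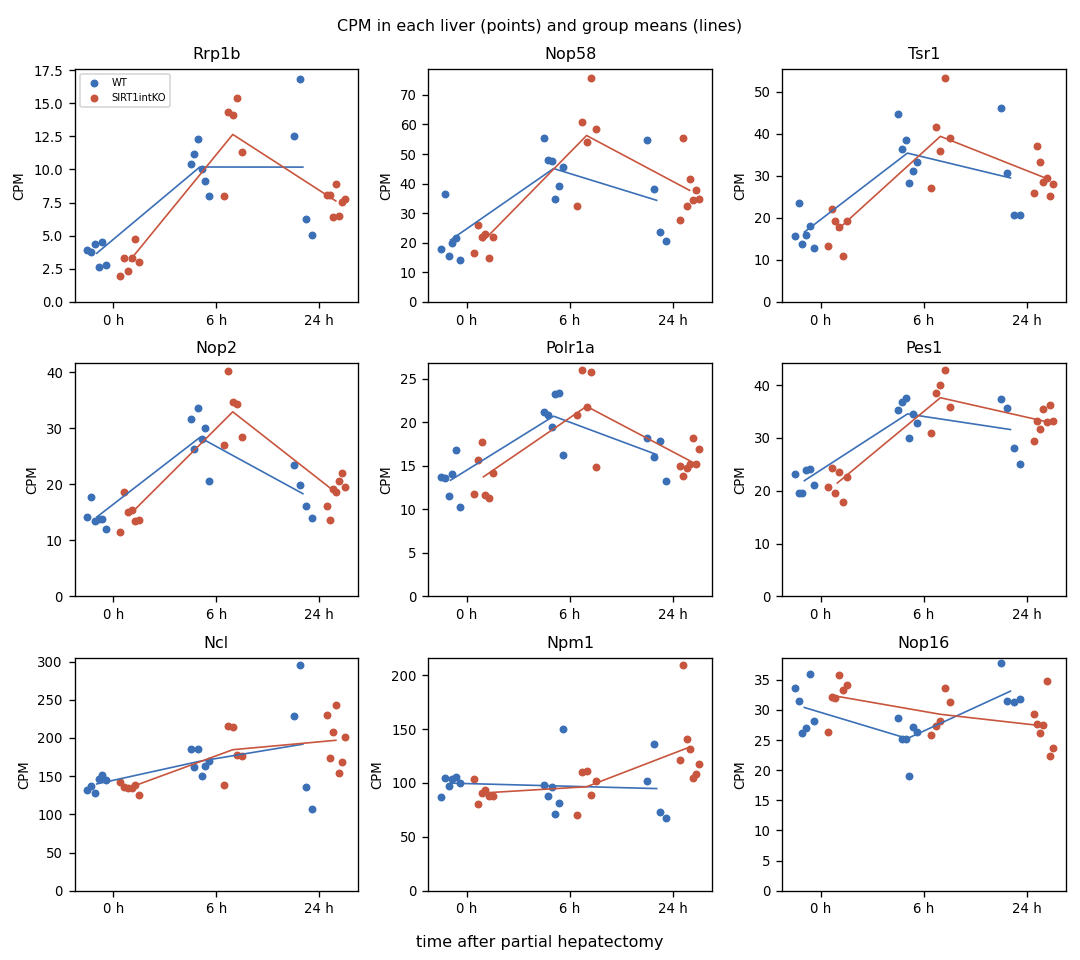
Each panel plots the CPM of 1 gene, from 0, at 0, 6 and 24 h. Points are livers, blue for WT and red for SIRT1intKO, and lines join group means. Rrp1b and Pes1 lie above their 0 h livers in every operated liver, Nop2 is high at 6 h, Npm1 is high in SIRT1intKO at 24 h, and Nop16 is lower at 6 h in WT.

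By time course, 27 members rose at 6 h in both genotypes and 16 rose at 24 h in both. The share of all genes that met such joint conditions was not computed. The overlaps in this paragraph are therefore counts without a comparison. Of the members that rose at 6 h, 17 of 29 in WT and 21 of 33 in SIRT1intKO were also higher at 24 h. The 15 that were higher in all 4 comparisons, which share the 0 h livers within each genotype, were Polr3d, Mybbp1a, Nop58, Rrp9, Heatr1, Wdr43, Wdr75, Imp4, Tsr1, Bysl, Rrp12, Pes1, Rrp1b, Nip7 and Grwd1. Polr1c, Dkc1, Imp3, Rcl1, Nop16 and Mrto4 were higher in 0 of the 4. The first list draws on every role group and the second does too, apart from the scaffold proteins and the late small-subunit factors.

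From 6 to 24 h, 1 member rose and 2 fell in WT, where 10% of all genes rose and 6.43% fell, and 1 rose and 15 fell in SIRT1intKO, where 13.2% rose and 14.4% fell. Ltv1 and Nop2 fell in both genotypes, Ltv1 by 0.71 in WT and 0.37 in SIRT1intKO. The 13 others that fell in SIRT1intKO were Polr1a, Polr1b, Polr3d, Nolc1, Rrp9, Heatr1, Nop14, Bysl, Rrp12, Noc3l, Rrp1b, Grwd1 and Mrto4, by 0.26 to 0.80. The SIRT1intKO count rested on the scaling and on single livers. Of the 16 calls, 8 were kept in all 12 fits that left out a liver. Polr3d, Grwd1 and Ltv1 were kept least often, in 2, 3 and 4 of these fits. Scaled by library totals in place of TMM, 2 members rose and 2 fell in SIRT1intKO, a scaling that moved the median of all genes to 0.27, kept 3 of the 16 calls and turned the sign of Mrto4, and without SIRT1intKO replicate 4 of 6 h 0 rose and 9 fell. In WT, Nop2 no longer passed when scaled by library totals (-0.49) or fitted with only the groups compared (-0.62), and Nop16 no longer passed in the latter fit (0.40) or without the filter (0.38). Whether the fall differed between genotypes was not tested as such.

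Between genotypes no member passed the test. At 0 h, 0 of 42 members passed with edgeR, 0 with DESeq2 and 0 at an unadjusted p under 0.05, where 0% of all genes passed and 1.07% had such an unadjusted p. At 6 h, 0 passed with either tool and Polr1b alone had an unadjusted p under 0.05, against 0% and 6.52% of all genes. The fitted difference at 6 h was above 0 for 38 of 42 members, with a median of 0.15, where the median of all genes was 0.01. The members are measured in the same livers and are not independent. By mean over the members, SIRT1intKO replicates 2, 3 and 4 of 6 h lay above the WT range of 4.54 to 4.79. Replicate 5, at 4.70, lay within it and replicate 1, at 4.502, below it. Polr1b had the highest value, 0.41 with a 95% interval from 0.116 to 0.698 and an adjusted p of 0.731. For most members the intervals at 6 h reached from below 0 to above 0.3, so differences of that size could be neither detected nor set aside with this number of livers.

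At 24 h, 0 of 42 members passed with edgeR or DESeq2, where 2.3% of all genes were higher and 3.51% lower in SIRT1intKO, and 7 members had an unadjusted p under 0.05 against 23.4% of all genes. Fbl was closest to the threshold, at -0.29 (95% interval -0.495 to -0.0844, adjusted p = 0.0776). Heatr1 had -0.59 (-1.05 to -0.142, adjusted p = 0.0998) and Npm1 0.49 (0.106 to 0.877, adjusted p = 0.11). The others were Noc4l at -0.40, Nop16 at -0.28, Ltv1 at 0.35 and Pno1 at 0.28. These differences ran in both directions, and the median over the members was -0.03. Scaled by library totals, 3 members were higher in SIRT1intKO, and leaving out single livers gave 0 to 2 members, 2 without WT replicate 3, without WT replicate 4 or without SIRT1intKO replicate 5.

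Whether the response to PHx depended on genotype was tested as an interaction. At 6 h, 0 members passed with edgeR or DESeq2 and 0 had an unadjusted p under 0.05, against 0% and 3.05% of all genes. The fitted change was larger in SIRT1intKO for 35 of 42 members, which come from the same livers and are not independent. The largest such value was 0.55 for Rrp1b, with a 95% interval from -0.12 to 1.22. At 24 h, 0 members passed with either tool, where 0.00668% of all genes were called higher and 0% lower, and 3 members had an unadjusted p under 0.05 against 12.7%. Npm1 was highest, at 0.63 (0.11 to 1.15, adjusted p = 0.296). Members that passed the test in 1 genotype and not in the other are therefore not shown to differ between them.

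**Figure D5:**
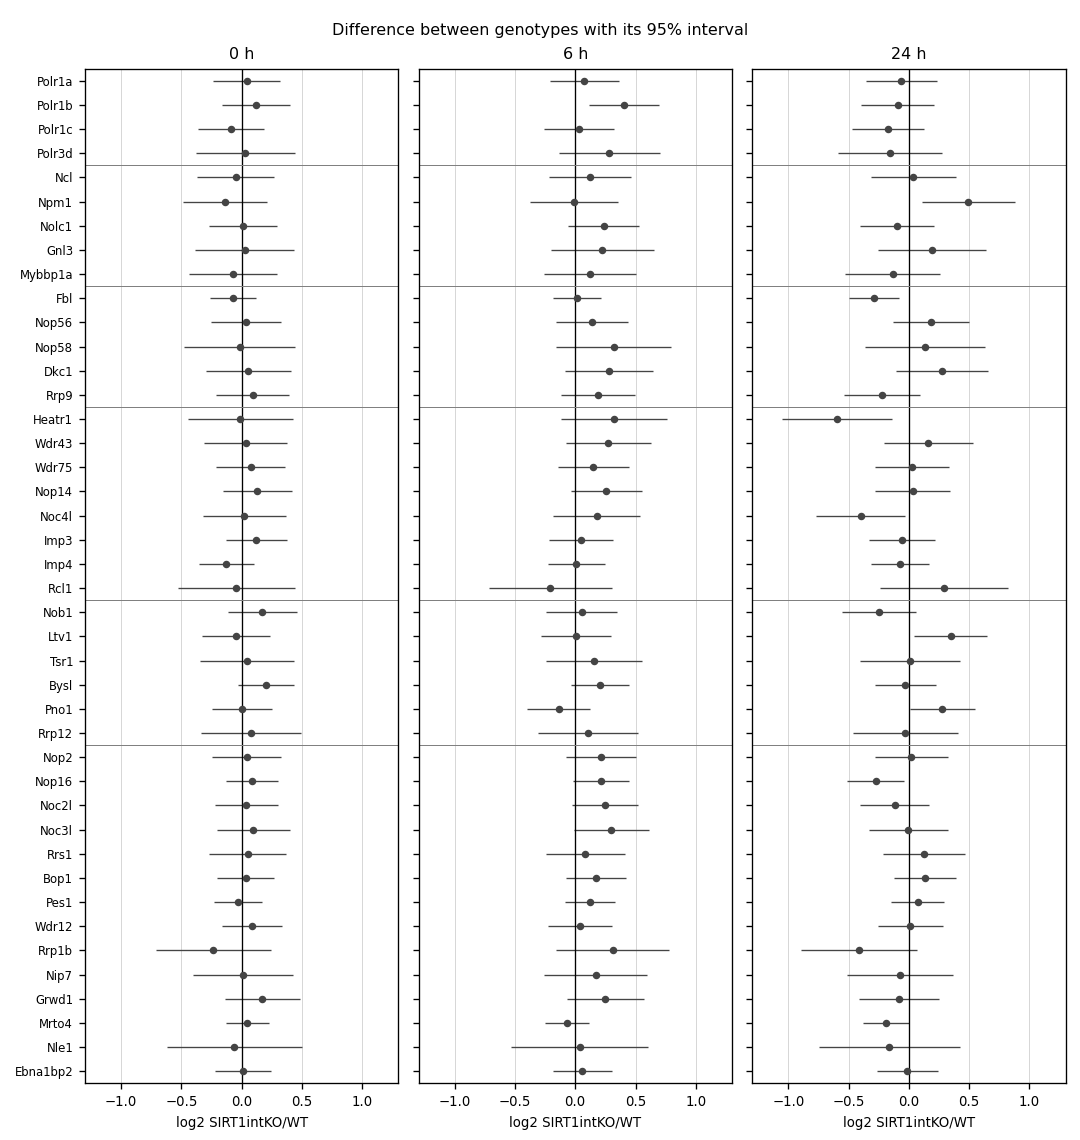
Points are log2 ratios of SIRT1intKO to WT for each of the 42 genes at 0, 6 and 24 h, with 95% intervals from the fit and lines between role groups. Intervals include 0 for all genes at 0 h and for all but Polr1b at 6 h, and at 24 h 7 of them exclude 0, on both sides, none past an adjusted p of 0.05.

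Of 135 further genes of ribosome assembly and polymerases I and III, 60 rose and 3 fell at 6 h in WT and 73 rose and 4 fell in SIRT1intKO, and at 24 h the counts were 50 and 1 in WT and 58 and 10 in SIRT1intKO. Of all genes, 18.9% and 20.9% rose at 6 h and 19.5% and 26.2% at 24 h in the same comparisons. These lists too were chosen with earlier results of these data known. The 53 other large-subunit factors had 28 and 35 members higher at 6 h and the 51 other small-subunit factors 26 and 30. Of the genes with most counts in each list, Eif6, which keeps the large subunit from joining too early, rose by 1.42 and 1.75 at 6 h and 1.73 and 2.23 at 24 h. Riok3, a kinase of the small-subunit precursor, rose by 0.39 and 0.36 at 6 h and by 0.55 and 0.82 at 24 h. Rrp1, the relative of Rrp1b, rose in 3 of the 4 comparisons by 0.28 to 0.31, with 0.15 in WT at 6 h, while Pa2g4 lay between 0.04 and 0.24 and did not pass the test. Emg1, a methyltransferase, fell by 0.34 in SIRT1intKO at 6 h (adjusted p = 0.0487), and Nop10, of the H/ACA particle, did not pass against 0 h.

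Of 12 other polymerase I genes 3 rose at 6 h in WT and 4 in SIRT1intKO, and of 19 other polymerase III genes 3 rose and 3 fell in WT and 4 rose and 3 fell in SIRT1intKO. The polymerase III shares were near those of all genes, 18.9% and 20.9% higher. Ubtf, which keeps ribosomal DNA open, had -0.15 and 0.04 at 6 h and rose by 0.37 in WT at 24 h, where SIRT1intKO had 0.15. Taf1d, of the polymerase I selectivity factor, rose in SIRT1intKO by 1.02 at 6 h and had 0.55 in WT at 6 h (adjusted p = 0.0677). At 24 h it rose in both genotypes, by 1.20 in WT and 0.84 in SIRT1intKO. The WT livers of 24 h were divided, with 38.12, 59.47, 15.08 and 11.45 CPM of Taf1d against 11.3 to 15 at 0 h. Polr1d did not pass the test against 0 h. Of the Gtf3c genes, which encode the polymerase III factor TFIIIC, Gtf3c2 fell by 0.31 and Gtf3c6 rose by 0.66 in SIRT1intKO at 24 h, and Gtf3c1 did not pass against 0 h.

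Ribosomal protein genes did not share the 6 h change. Of 90 tested, 2 rose and 1 fell at 6 h in WT and 1 rose and 1 fell in SIRT1intKO, with medians of 0.15 and 0.05. At 24 h 2 rose and 1 fell in WT, and 67 rose and 1 fell in SIRT1intKO, with medians of 0.12 and 0.65, where 19.5% and 26.2% of all genes rose. In SIRT1intKO 3 of the 90 had every liver of 24 h above every liver of 0 h, against 11% of all genes. Npm1, at 0.55, and Pno1, at 0.36, were the members that rose in the same comparison without having passed at 6 h in SIRT1intKO. Between genotypes at 24 h, 0 of the 90 passed the test with edgeR, and the median difference was 0.42. An unadjusted p under 0.05 was found for 24 of the 90, where 23.4% of all genes had one.

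The Myc family was read beside the E-box matches. Myc had 1.92, 4.69 and 34.3 CPM as lowest, median and highest in WT livers of 0 h, 4.20, 6.42 and 8.61 at 6 h and 4.73 to 23.2 at 24 h, and in SIRT1intKO 4.93, 9.55 and 16.5, then 4.01, 5.39 and 18.9 as lowest, median and highest, then 6.76, 14.5 and 26.1. The groups overlapped widely and Myc did not pass the test in any comparison, with -0.72 and 0.03 at 6 h. The highest WT liver of 0 h was replicate 1, with the next at 14.49 CPM, and the WT median was higher at 6 h than at 0 h. In SIRT1intKO at 6 h, replicates 2 and 3 had 18.31 and 18.87 CPM and the others 4.005 to 5.387. Max, the dimer partner of Myc, rose at 6 h by 0.32 in WT and 0.61 in SIRT1intKO and at 24 h by 0.40 in WT. The WT livers of 24 h were divided, with 28.35, 28.97, 17.49 and 15.73 CPM of Max against 16.5 to 17.9 at 0 h. Mnt, a Max-binding repressor, rose by 1.00 in WT at 24 h, from livers at 33.8 and 33.2 CPM in replicates 1 and 2 and at 9.79 and 11.2 in replicates 3 and 4, the same livers that differed in the members. Mycl did not pass the test and Mycn did not pass the filter on low counts.

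The 10 members with an E-box all rose at 6 h in WT and 9 rose in SIRT1intKO, all but Pno1, with medians of 0.88 and 1.03. Of the 26 members with a window and no E-box, 16 rose in WT and 19 in SIRT1intKO, with medians of 0.49 and 0.56. At 24 h, 6 and 9 of the 10 rose, with medians of 0.57 and 0.58, and 11 and 9 of the 26, with medians of 0.30 and 0.24. The ranges of the 2 groups overlapped, since Rrp1b and Heatr1, with the largest rises, have no E-box in their windows. Members with and without an ETS match had medians of 0.67 and 0.57 in WT at 6 h and 0.82 and 0.67 in SIRT1intKO. The 5 members with CTCGCGA and the 31 without it had medians of 0.93 and 0.57 in WT and 1.12 and 0.67 in SIRT1intKO at 6 h, and 0.71 and 0.37 in WT and 0.71 and 0.34 in SIRT1intKO at 24 h, so a split of this size was not particular to the E-box. These splits are descriptions, and no test was made of them.

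Markers of other cell types moved in the same comparisons. Of 6 monocyte and macrophage markers, none at 0 in any group, 3 rose at 6 h in WT, and 2 rose and 1 fell in SIRT1intKO, and at 24 h 4 rose and 1 fell in WT and all 6 rose in SIRT1intKO, with medians of 1.39 and 3.08. From 6 to 24 h in SIRT1intKO 5 of them rose and Fn1 fell by 0.53. Their summed level, 568 to 934 CPM at 0 h, 1910 to 2870 at 6 h and 1320 to 2330 at 24 h, was 91.2% to 99% Fn1, which encodes fibronectin and is also made by hepatocytes, and so follows that gene. Summed lymphocyte markers ranged from 5.16 to 8.05 CPM at 0 h and from 0.0571 to 2.72 in all operated livers. At 0 h Cd4 made up 60.5% of this sum in WT and 62.9% in SIRT1intKO. Cd3e, Ms4a1 and Nkg7 of this list did not pass the filter on low counts. Summed neutrophil markers ranged up to 954 CPM in SIRT1intKO replicate 2 of 24 h, the same liver in which Npm1 was highest, at 209 CPM. Over the SIRT1intKO livers of 24 h, S100a8 and S100a9 made up 35.8% and 47.5% of this sum. Summed markers of proliferation, between 78.7% and 85.3% of them from Pcna, ranged from 21.6 to 28.1 CPM at 0 h, 16.5 to 33.5 at 6 h and 21 to 47.1 at 24 h. WT replicate 6 of 6 h stood apart, with neutrophil markers at 59.5 CPM and proliferation markers at 33.5. The next highest WT livers of 6 h had 17.6 and 20.9. Replicate 6 was also the lowest of its group for 21 members and the highest for 7. Its TMM factor, 0.7399, was the lowest of all 34 libraries. The part of these markers in the members' changes was not tested. Without SIRT1intKO replicate 2 of 24 h, and without each other liver of that comparison in turn, Npm1 was called at 24 h in SIRT1intKO.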

How the data were processed

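Expected counts per gene, estimated by Salmon after STAR alignment in the nf-core pipeline and merged over libraries, were deposited by the authors without scaling. Processing notes name GRCm39, and STAR and Salmon versions are not given in the sources used here. Libraries were stranded and polyA-selected. Of 35 value columns, 1 matched no library's labels and was not used. Expected counts were rounded (4.97% were not whole). The letter x is absent from the table's symbols, so 1255 were restored through gene identifiers with GENCODE vM21 symbols, none of them a member.

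In R 4.3.3, edgeR 4.0.16 (TMM, filterByExpr, quasi-likelihood, 1 mean per genotype and time, all 34 libraries) gave 14980 tested genes, and p-values were adjusted by Benjamini-Hochberg over all of them. Mean log2 CPM used a prior count of 2. Standard errors follow from the log2 fold change and the F statistic. Alternatives were DESeq2 1.42.0, other scalings, filters, sample sets and thresholds, a replicate block and leaving out each library. The code was tested on simulated data. No 2 libraries of the same genotype and time point agreed within sampling noise, and pairs across groups were not compared.

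Members and lists were chosen with earlier results of these data known. Per-library values are given for the 2 members with most counts in each role group and the highest and lowest change in each time comparison, and Heatr1 was added after its values were seen. Promoter windows are RefSeq's (GRCm38.p6), and 29 of 36 read into a GENCODE vM21 transcript on the same strand.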

Additional observations from a re-analysis of the deposited data

Results flagged for a closer look

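In 96 groups of values (the mean over the 42 genes and the CPM of 15 named members in each genotype and time point), 8 held a liver whose gap to its nearest neighbour exceeded Dixon's critical value, where chance gives about 1 in 20 groups. In WT livers of 0 h, replicate 2 had 36.3 CPM of Nop58 and 35.1 CPM of Imp3, above next values of 21.6 and 27.8. In WT livers of 6 h, replicate 6 had 150 CPM of Npm1 (next 97.7) and replicate 4 had 19.1 CPM of Nop16, below the next value of 25.2. In WT livers of 24 h, replicate 2 had 45.7 CPM of Imp3 (next 30.9) and replicate 1 had 37.8 CPM of Nop16 (next 31.9). In SIRT1intKO livers, replicate 6 of 0 h had 33.2 CPM of Nop56 (next 28.3) and replicate 2 of 24 h had 209 CPM of Npm1 (next 141). None of the 6 groups held such a liver for the mean over the 42 genes.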

How the results depend on the processing

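Counts of members past the adjusted p of 0.05 are given by comparison. Requiring an absolute log2 fold change over 1 as well left 9 (WT) and 11 (SIRT1intKO) at 6 h, 3 and 1 at 24 h, and 0 and 0 from 6 to 24 h, fewer by construction. Fitting only the groups compared gave 12 in WT at 24 h. DESeq2 gave 5 in WT from 6 to 24 h, and scaling by library totals gave 4 in SIRT1intKO from 6 to 24 h and 3 between genotypes at 24 h. The cause was not tested. Library totals moved the median of all genes from 0.02 to -0.17 in WT at 6 h, from 0.04 to 0.20 in SIRT1intKO at 24 h, and to 0.18 and 0.27 from 6 to 24 h. In SIRT1intKO from 6 to 24 h, library totals turned the sign of Mrto4. Of the 3 calls in WT from 6 to 24 h, 1 was kept with only the groups compared and 2 with library totals or no filter. The other counts stayed within 1.5 times the main count.

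Leaving out single libraries gave 27 to 31 members in WT and 27 to 33 in SIRT1intKO at 6 h, 12 to 27 in WT and 21 to 25 in SIRT1intKO at 24 h, 3 to 4 in WT and 9 to 16 in SIRT1intKO from 6 to 24 h, 0 to 2 between genotypes at 24 h, and 0 for the other genotype comparisons and both interactions. Of the members called, 26 of 30, 27 of 33, 9 of 20 and 20 of 23 were called in every such fit at 6 and 24 h in WT and SIRT1intKO in that order. Of 37 results for named members, 651 alternative values kept their sign, and 77 of them no longer passed.

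The replicate numbers did not pair livers: of 76 same-numbered pairs, 6 had deviations correlated over 0.1 (range -0.306 to 0.217). With the replicate block, 28 and 30 members passed at 6 h, 18 and 22 at 24 h and 3 and 12 from 6 to 24 h, in WT and SIRT1intKO, and 0 between genotypes. Wide errors were found for members with few counts, such as Rrp1b with 4417, and also for members with more, such as Nop58 with 20446.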
